A study of Mus musculus with 8 samples.

Results

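Genes for collagen chains, laminin chains and integrin subunits were followed in whole testes of mice bred to lose Dmrt1, a transcription factor gene of the male gonad, in Sertoli cells. The genes were chosen by name: every probe set with exactly 1 gene symbol that starts with Col and a digit, with Lama, Lamb or Lamc and a digit, or with Itga or Itgb was taken. Where a gene had several such probe sets, the one with the highest mean log2 intensity over all arrays stood for it. This gave 81 genes, of 18194 with a probe set of 1 symbol. Of these, 42 encode collagen chains, 10 laminin chains and 24 integrin subunits, and 5 carry the Itgb prefix but were not counted as subunits (Itgb1bp1, Itgb1bp2, Itgb3bp, Itgbl1 and Itgb2l). For the comparisons they were sorted into 18 basement membrane genes, 11 fibrillar collagens, 9 fibril-associated collagens, 14 other collagens, 7 leukocyte integrin subunits, 17 matrix receptor integrin subunits and those 5.

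RNA came from testes of male mice at postnatal day 28, 1 array per sample, 8 arrays in 3 groups. All mice, the controls included, were Dmrt1 flox/flox on a mixed C57BL6/6J and 129 background. The Sf1-Cre group (n = 4) also carried Cre under the Sf1 promoter, the Dhh-Cre group (n = 2) is labelled as carrying Cre under the Dhh promoter, and the control group (n = 2) carried no Cre. Both promoters are described by the submitters as specific to Sertoli cells, which nurse the germ cells inside the seminiferous tubule. Sf1, also called Nr5a1, is also active in the steroid-making Leydig cells between the tubules. The labels call the arrays biological replicates, and the sources used here do not say whether testes of several mice were pooled.

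Collagens, laminins and integrins form one working unit at the edge of a tissue. Collagen chains and laminin chains assemble in threes outside the cell. Type IV collagen and laminin networks make up the basement membrane, the thin sheet beneath an epithelium, while fibrillar collagens such as types I and III make the ropes of the connective tissue around it. Integrins are pairs of an alpha and a beta subunit that span the cell membrane and bind these proteins on the outside and the cytoskeleton on the inside. In the testis, Sertoli cells and the muscle-like peritubular cells lay down the basement membrane of the tubule together. Integrins with the beta subunit of Itgb2 sit on white blood cells and bind other cells.

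Levels below are log2 of the deposited intensity, and differences are log2 fold changes (first-named group over the second). A gene was tested where at least 2 arrays reached log2 4, an intensity of 16, which served as the floor. A fold against a group with an array under that floor is given as a lower bound against the floor. Among the 81 genes, 62 were tested. The other 19 lay between log2 1.26 and 5.07, 16 of them under the floor on every array and 3 at it on 1 array. They were Col6a5, Col8a2, Col9a2, Col10a1, Col11a1, Col11a2, Col12a1, Col17a1, Col19a1, Col24a1, Itga2b, Itga10, Itgam, Itgax, Itgb4, Itgb6, Itgb7, Itgb1bp2 and Itgb2l. A gene high in 1 group only can pass this filter through that group, and 12 of the 62 had a control mean under the floor.

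Several facts of the arrays touch the results. Dmrt1 lay at log2 7.10, 7.89, 7.63 and 7.53 in Sf1-Cre arrays and 10.43 and 9.94 in the arrays labelled Dhh-Cre, against 8.50 and 8.76 in control arrays. Taken alone, that goes against the Dhh-Cre label, though whole testis also holds cells other than Sertoli cells. Each direction that involves those arrays rests on the label. Over all tested genes those arrays correlated at 0.886 to 0.949 with Sf1-Cre arrays and at 0.513 to 0.597 with control arrays. The sources used here do not place the Dmrt1 probe set relative to the deleted stretch. Spermatid genes were lower in the mutants: the summed intensity of 10 spermatid genes was 814 to 4137 in Sf1-Cre and 1252 to 12090 in labelled Dhh-Cre arrays, against 56910 to 61690 in control arrays. The 13 measured housekeeping genes summed to 60530 to 67350 in Sf1-Cre and 60700 to 61950 in labelled Dhh-Cre arrays, against 35300 to 37510 in control arrays. Centring each array on them moved the median difference of all tested genes to -1.03, from 0.34, in Sf1-Cre, and to -0.79, from 0.54, in labelled Dhh-Cre, with 2572 genes higher and 8530 lower in Sf1-Cre. Of the 13 housekeeping genes, 11 were called higher in Sf1-Cre, Tbp was lower and Actb did not pass. In labelled Dhh-Cre 10 were higher and 1 lower, so the centring rests on genes whose own deposited values differ. Sf1-Cre replicate 1 stood apart by blood cell genes, with S100a8 at 10.9 against 3.24 to 3.63 on the other Sf1-Cre arrays. Spink8, an epididymal gene, reached log2 10 on 3 arrays (Sf1-Cre replicates 1 and 3 and labelled Dhh-Cre replicate 1). Of 7 epididymal genes on the array, Lcn5, Lcn8 and Rnase10 were under the floor on every array. Adam7 lay at 6.72, 3.72 and 7.59 on those 3 arrays and at 1.92 to 2.58 on the others. Defb15 was called higher and Ros1 lower in both mutant groups. In whole tissue, fewer cells of a type and less RNA per cell cannot be told apart.

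The first question was how the collagen, laminin and integrin genes differ in Sf1-Cre testes from controls. Of the 62 tested genes, 38 were higher and 19 lower by limma at adjusted p under 0.05, and 5 did not pass. These counts have to be read against a wide background. Of all 13802 genes tested, 79.8% were called in this comparison, 46.6% higher and 33.2% lower. The median difference was 1.62 over the 62 genes and 0.34 over all tested genes. With values under the floor set to it, the median of the 62 was 1.41, against 0.25 over all tested genes. Without the filter it was 0.41 over all 81 genes, against 0.03 over all 18194 genes. Under housekeeping centring 27 of the 62 were higher and 25 lower, where 2572 of all 13802 tested genes were higher and 8530 lower. Every Sf1-Cre array lay above both control arrays for 40 of the 62 genes (50.0% of all genes) and below both for 20 (36.0%).

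In labelled Dhh-Cre testes 38 of the 62 were higher and 16 lower than in controls, and 8 did not pass. Over all genes 79.6% were called there, 49.1% higher and 30.5% lower. The median difference was 1.88 over the 62 genes and 0.54 over all. Under housekeeping centring 30 were higher and 20 lower, where 2761 of all 13802 tested genes were higher and 7524 lower. The mutant groups share the 2 control arrays, so the comparisons are not independent. Side by side, 36 genes were higher than control in both groups, 16 were lower in both, and 3 passed in neither (Col7a1, Col9a3 and Itgal). Col25a1 and Col5a3 were called higher, and Col26a1, Itgb1bp1 and Itgbl1 lower, in the Sf1-Cre comparison and not in the labelled Dhh-Cre one. Col13a1 and Itga8 were called higher in the labelled Dhh-Cre comparison and not in the Sf1-Cre one. The direct test of Sf1-Cre over labelled Dhh-Cre, given further on, passed for Col25a1 and Itgbl1. It did not pass for Col5a3 (0.38 ± 0.25 SE, adjusted p = 0.296), Col26a1 (-1.56 ± 0.54 SE, adjusted p = 0.0707), Itgb1bp1 (-0.28 ± 0.15 SE, adjusted p = 0.205), Col13a1 (-0.21 ± 0.25 SE, adjusted p = 0.575) or Itga8 (-0.72 ± 0.36 SE, adjusted p = 0.178), so these 5 are not shown to differ between the mutant groups. Both labelled Dhh-Cre arrays lay above both control arrays for 42 of the 62 genes (56.0% of all genes) and below both for 16 (35.1%).

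**Figure D1:**
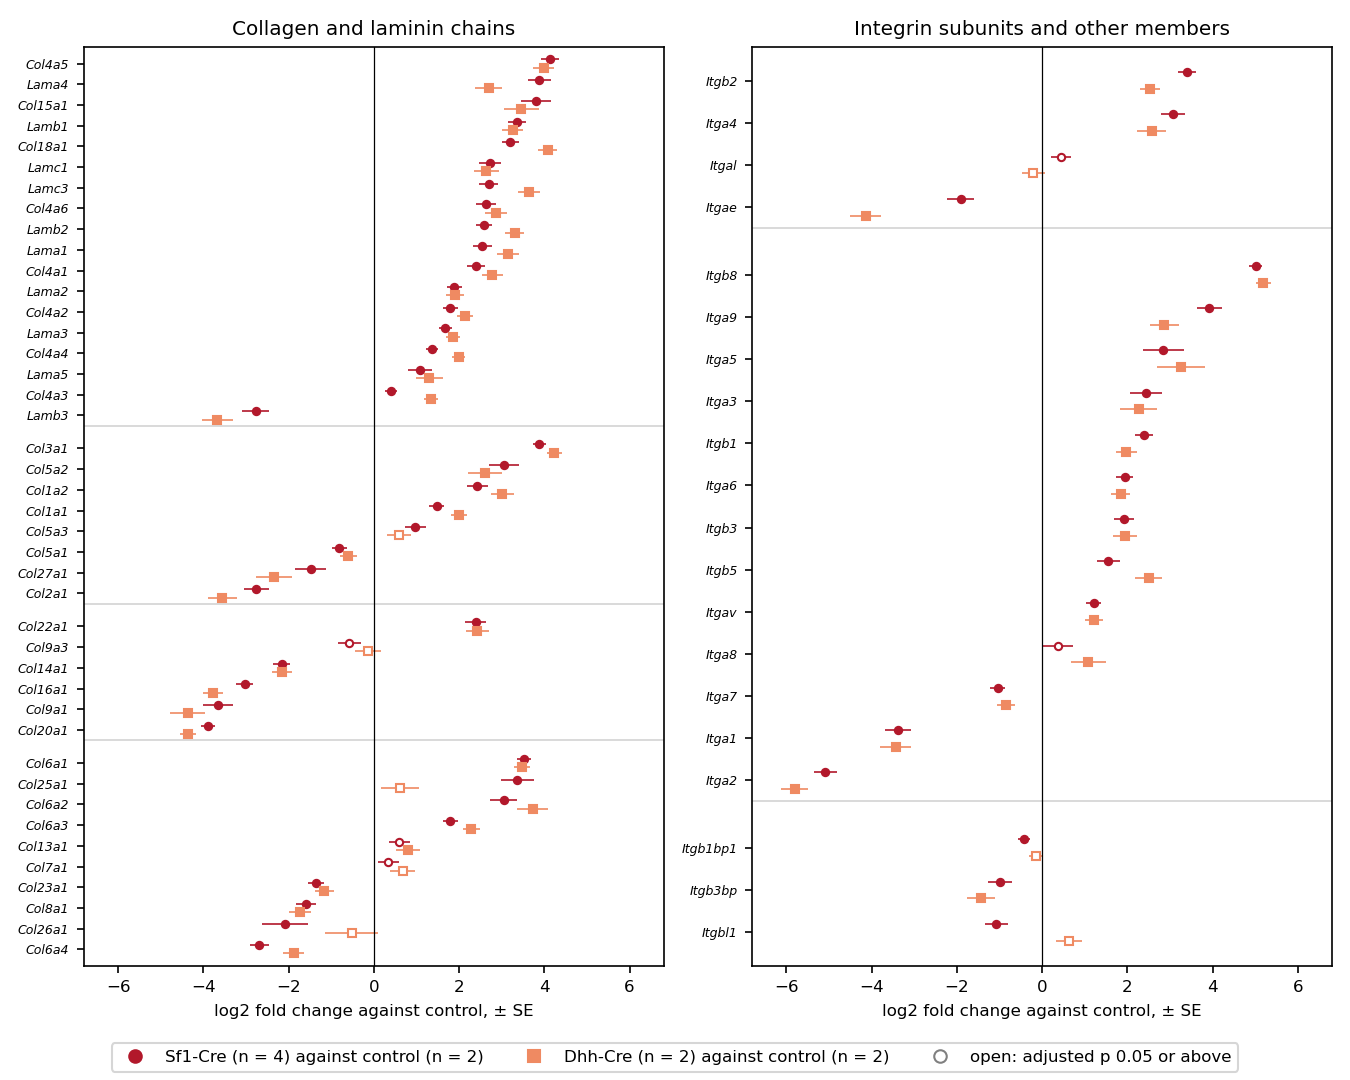
Log2 fold change against control with its SE for the 62 tested genes, circles for Sf1-Cre (n = 4) and squares for labelled Dhh-Cre (n = 2), both against 2 control arrays; open symbols did not pass. Left, from the top, grey lines separate basement membrane genes, fibrillar, fibril-associated and other collagens; right, leukocyte integrin subunits, matrix receptor subunits and the genes not counted as subunits. The basement membrane block sits right of 0 except Lamb3, and Itgb8 (5.01) and Itga2 (-5.09) mark the ends.

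Basement membrane genes were higher in the mutants almost as a block. Of the 18, all tested, 17 were higher and only Lamb3 was lower, in Sf1-Cre and in labelled Dhh-Cre testes alike. Under housekeeping centring 12 were higher and 2 lower (Col4a3 and Lamb3) in Sf1-Cre, and 15 were higher and 1 lower (Lamb3) in labelled Dhh-Cre. Their median difference was 2.56 in Sf1-Cre and 2.74 in labelled Dhh-Cre. Without the 3 arrays with high Spink8, 16 were higher and 1 lower in Sf1-Cre, and 17 higher and 1 lower in labelled Dhh-Cre.

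Type IV collagen has 6 chains, encoded by Col4a1 to Col4a6, and the Col4a1 and Col4a2 chains form its most widespread network. Col4a1 lay at log2 10.74, 10.89, 11.01 and 11.37 in Sf1-Cre arrays and 11.58 and 11.19 in labelled Dhh-Cre arrays, against 8.68 and 8.53 in control arrays. Its level was 5.28-fold higher in Sf1-Cre (2.40 ± 0.21 SE, adjusted p = 2.04e-05) and 6.88-fold in labelled Dhh-Cre (2.78 ± 0.24 SE, adjusted p = 2.33e-05). Col4a2 lay at 11.66, 11.66, 11.93 and 11.88 in Sf1-Cre arrays and 12.31 and 11.94 in labelled Dhh-Cre arrays, against 9.88 and 10.09 in control arrays. The gene was 3.47-fold higher in Sf1-Cre (1.80 ± 0.17 SE, adjusted p = 2.97e-05) and 4.41-fold in labelled Dhh-Cre (2.14 ± 0.19 SE, adjusted p = 2.89e-05). Every mutant array lay above both controls for this pair of genes. Under housekeeping centring Col4a2 kept its direction in Sf1-Cre but no longer passed.

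Col4a1 and Col4a2 are read in opposite directions from a common start region. On mouse chromosome 8 (GRCm38.p6) Col4a1 spans bases 11198423 to 11312889 on the minus strand and Col4a2 spans 11312805 to 11449287 on the plus strand, so the gene models overlap by 85 bases. Their RefSeq promoter windows, each 250 bases before and 50 after the annotated start, share 78 bases. They are shown because this pair moved together and the windows hold the same stretch, once on each strand. Capitals mark the shared stretch, and the windows are chr8:11312777-11313076 on the minus strand for Col4a1 and chr8:11312555-11312854 on the plus strand for Col4a2, both written 5′ to 3′.
Col4a1: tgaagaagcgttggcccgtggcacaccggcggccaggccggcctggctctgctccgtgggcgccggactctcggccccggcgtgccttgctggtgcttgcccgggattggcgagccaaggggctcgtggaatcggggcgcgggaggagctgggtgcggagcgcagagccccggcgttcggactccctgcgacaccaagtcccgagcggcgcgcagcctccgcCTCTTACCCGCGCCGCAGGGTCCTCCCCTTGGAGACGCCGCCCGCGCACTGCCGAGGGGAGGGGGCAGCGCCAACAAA
Col4a2: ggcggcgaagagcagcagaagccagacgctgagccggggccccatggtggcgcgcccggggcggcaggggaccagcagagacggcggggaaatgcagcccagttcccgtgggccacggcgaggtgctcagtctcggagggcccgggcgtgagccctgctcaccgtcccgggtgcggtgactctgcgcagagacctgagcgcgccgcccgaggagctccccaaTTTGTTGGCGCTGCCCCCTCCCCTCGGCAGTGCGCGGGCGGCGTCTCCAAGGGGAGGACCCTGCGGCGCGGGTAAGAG

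The Col4a3 and Col4a4 chains join with that of Col4a5 in the basement membranes of the kidney and testis, and the Col4a6 chain pairs with that of Col4a5. Col4a3 lay at 5.75, 5.61, 5.74 and 5.95 in Sf1-Cre arrays and 6.71 and 6.65 in labelled Dhh-Cre arrays, against 5.30 and 5.40 in control arrays. The gap to the controls was small in Sf1-Cre (0.41 ± 0.14 SE, adjusted p = 0.0267) and wider in labelled Dhh-Cre (1.33 ± 0.16 SE, adjusted p = 0.000137). Its Sf1-Cre call held in 10 of 20 alternatives and turned to -0.96 (adjusted p = 0.000886) under housekeeping centring. It was also lost without Sf1-Cre replicate 3 (adjusted p = 0.0516), without control replicate 1 (0.13) and without control replicate 2 (0.0649). Col4a4 lay at 10.86, 10.54, 10.85 and 10.71 in Sf1-Cre arrays and 11.35 and 11.40 in labelled Dhh-Cre arrays, against 9.39 and 9.39 in control arrays. The gene was 2.56-fold higher in Sf1-Cre (1.35 ± 0.14 SE, adjusted p = 5.66e-05) and 3.96-fold in labelled Dhh-Cre (1.99 ± 0.16 SE, adjusted p = 1.93e-05), with no overlap of mutants and controls. Under housekeeping centring the Sf1-Cre difference was -0.02. Col4a5 lay at 8.02, 8.03, 8.17 and 7.99 in Sf1-Cre arrays and 7.77 and 8.03 in labelled Dhh-Cre arrays, against 4.30 and 3.54 in control arrays. It was at least 15.0-fold higher in Sf1-Cre (4.13 ± 0.22 SE, adjusted p = 1.88e-06), the largest difference of the type IV chains there, and at least 13.5-fold in labelled Dhh-Cre. Another tested Col4a5 probe set differed by 0.98 in Sf1-Cre and 1.07 in labelled Dhh-Cre, so the size depends on the probe set. Col4a6 lay at 7.01, 6.67, 7.10 and 7.33 in Sf1-Cre arrays and 7.45 and 7.08 in labelled Dhh-Cre arrays, against 4.62 and 4.17 in control arrays. Its level was 6.2-fold higher in Sf1-Cre and 7.31-fold in labelled Dhh-Cre. Another tested Col4a6 probe set differed by 0.03 and 0.14.

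Col15a1 and Col18a1 encode the collagens that tie a basement membrane to the tissue below, and a fragment of the Col18a1 product is known as endostatin. Col15a1 lay at 8.35, 8.41, 9.19 and 9.47 in Sf1-Cre arrays and 8.80 and 8.21 in labelled Dhh-Cre arrays, against 5.16 and 4.92 in control arrays. The gene was 14.1-fold higher in Sf1-Cre (3.81 ± 0.35 SE, adjusted p = 2.86e-05) and 11.0-fold in labelled Dhh-Cre (3.46 ± 0.41 SE, adjusted p = 0.000107). Col18a1 lay at 10.05, 9.98, 9.96 and 10.15 in Sf1-Cre arrays and 11.22 and 10.59 in labelled Dhh-Cre arrays, against 6.69 and 6.98 in control arrays. The gene was 9.2-fold higher in Sf1-Cre (3.20 ± 0.20 SE, adjusted p = 3.9e-06) and 16.8-fold in labelled Dhh-Cre (4.07 ± 0.23 SE, adjusted p = 4.41e-06). For both genes every mutant array stood far above both controls.

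Each laminin joins 1 alpha, 1 beta and 1 gamma chain. Of the 5 alpha chain genes, Lama1 is a gene of embryonic and tubule basement membranes. Lama1 lay at 9.24, 9.35, 9.61 and 9.85 in Sf1-Cre arrays and 10.36 and 9.87 in labelled Dhh-Cre arrays, against 6.93 and 7.01 in control arrays. Lama2, whose chain surrounds muscle cells, lay at 9.71, 9.73, 10.24 and 10.04 in Sf1-Cre arrays and 10.01 and 9.89 in labelled Dhh-Cre arrays, against 7.99 and 8.09 in control arrays. Lama4, the alpha chain of vessel walls and of mesenchyme, lay at 8.52, 8.84, 9.12 and 9.52 in Sf1-Cre arrays and 7.97 and 7.65 in labelled Dhh-Cre arrays, against 5.04 and 5.21 in control arrays. All mutant arrays lay above the controls for these 3 genes. The rises in Sf1-Cre were 5.84-fold for Lama1 (2.54 ± 0.22 SE), 3.7-fold for Lama2 (1.89 ± 0.18 SE) and 14.7-fold for Lama4 (3.88 ± 0.27 SE). In labelled Dhh-Cre they were 8.84-fold, 3.76-fold and 6.45-fold for the same genes. Lama5, the alpha chain of many mature epithelia, lay at 6.48, 6.30, 6.56 and 6.52 in Sf1-Cre arrays and 7.22 and 6.15 in labelled Dhh-Cre arrays, against 5.28 and 5.48 in control arrays. It was 2.12-fold higher in Sf1-Cre (1.08 ± 0.27 SE, adjusted p = 0.00682) and 2.46-fold in labelled Dhh-Cre, and under housekeeping centring the differences were -0.29 and -0.03. Its Sf1-Cre call was lost without control replicate 1 (adjusted p = 0.0553). Lama3, the alpha chain of skin laminin, stayed close to the floor at 4.28, 4.31, 4.48 and 4.33 in Sf1-Cre arrays and 4.49 and 4.56 in labelled Dhh-Cre arrays, against 2.84 and 2.50 in control arrays. Its level was at least 1.27-fold higher in Sf1-Cre (1.68 ± 0.15 SE, adjusted p = 2.17e-05) and at least 1.44-fold in labelled Dhh-Cre, and its Sf1-Cre call was lost under housekeeping centring (0.31, adjusted p = 0.0801).

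Among beta and gamma chains, Lamb1 and Lamc1 encode the widespread pair and Lamb2 the beta chain of kidney and synaptic laminins. Lamb1 lay at 10.63, 10.71, 11.03 and 11.10 in Sf1-Cre arrays and 11.02 and 10.49 in labelled Dhh-Cre arrays, against 7.54 and 7.47 in control arrays. Lamb2 lay at 10.40, 10.20, 10.82 and 10.33 in Sf1-Cre arrays and 11.27 and 11.05 in labelled Dhh-Cre arrays, against 7.86 and 7.84 in control arrays. Lamc1 lay at 5.35, 5.79, 6.00 and 6.25 in Sf1-Cre arrays and 5.62 and 5.90 in labelled Dhh-Cre arrays, against 2.97 and 3.27 in control arrays. The mutants stood clear of the controls in each case. In Sf1-Cre the rises were 10.3-fold for Lamb1 (3.37 ± 0.21 SE), 6-fold for Lamb2 (2.58 ± 0.19 SE) and at least 3.59-fold for Lamc1 (2.73 ± 0.25 SE). In labelled Dhh-Cre they were 9.54-fold, 9.9-fold and at least 3.38-fold. Lamc3, a gamma chain gene, lay at 8.71, 8.90, 9.26 and 9.29 in Sf1-Cre arrays and 10.22 and 9.73 in labelled Dhh-Cre arrays, against 6.37 and 6.32 in control arrays. The gene was 6.49-fold higher in Sf1-Cre (2.70 ± 0.22 SE, adjusted p = 1.5e-05) and 12.4-fold in labelled Dhh-Cre (3.63 ± 0.25 SE, adjusted p = 9.73e-06).

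Lamb3 was the exception. Its chain is a part of skin laminin, and in the rat it has been described where spermatids attach to Sertoli cells. Lamb3 lay at 4.11, 3.27, 3.33 and 2.83 in Sf1-Cre arrays and 2.56 and 2.39 in labelled Dhh-Cre arrays, against 6.10 and 6.20 in control arrays. Only Sf1-Cre replicate 1 reached the floor among the mutants, and the gene was at least 4.37-fold lower in Sf1-Cre (-2.77 ± 0.31 SE, adjusted p = 8.6e-05) and at least 4.45-fold in labelled Dhh-Cre (-3.67 ± 0.36 SE, adjusted p = 4.43e-05). Spermatid genes were also lower in the mutants, and their part in the Lamb3 fall was not tested.

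**Figure D2:**
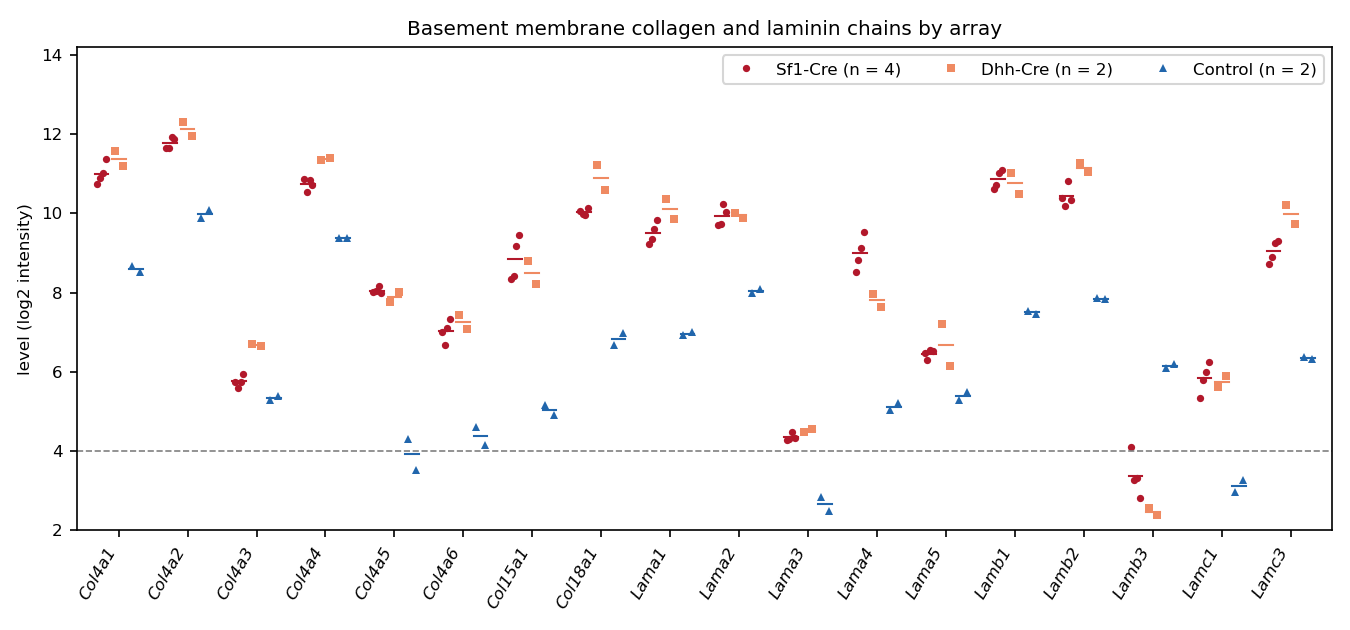
Log2 intensity of the 18 basement membrane genes on each array, circles Sf1-Cre, squares labelled Dhh-Cre and triangles control; short lines are group means and the dashed line is the floor at log2 4. Mutant arrays lie above the control arrays for 17 genes and below them for Lamb3, with the narrowest gap at Col4a3, which turned lower in Sf1-Cre under housekeeping centring.

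Other components of the basement membrane were read from a list of 21 genes. Of its 14 tested members 11 were higher and 2 lower in each mutant group, with medians of 1.32 in Sf1-Cre and 1.67 in labelled Dhh-Cre. The background for this and each later list is the share over all tested genes. That was 46.6% higher and 33.2% lower in Sf1-Cre, and 49.1% and 30.5% in labelled Dhh-Cre. Pxdn, the peroxidase that crosslinks type IV collagen, was 11.7-fold higher in Sf1-Cre (3.55 ± 0.22 SE, adjusted p = 4.2e-06) and 9.11-fold in labelled Dhh-Cre. Hspg2, encoding the proteoglycan perlecan, was 11.7-fold higher in Sf1-Cre (3.55 ± 0.28 SE, adjusted p = 1.38e-05) and 9.67-fold in labelled Dhh-Cre. Dag1, encoding the laminin receptor dystroglycan, was 4.67-fold higher in Sf1-Cre (2.22 ± 0.17 SE, adjusted p = 1.2e-05) and 5.05-fold in labelled Dhh-Cre. Tinagl1, a basement membrane glycoprotein gene, was at least 2.23-fold higher in Sf1-Cre (1.88 ± 0.17 SE, adjusted p = 2.97e-05) and at least 5.33-fold in labelled Dhh-Cre. The 2 lower genes, named after their values were seen, were Smoc2 (-2.16 ± 0.41 SE in Sf1-Cre) and Egflam (-0.75 ± 0.16 SE). Fn1, encoding fibronectin, did not pass (0.99 ± 0.52 SE, adjusted p = 0.112, in Sf1-Cre).

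The fibrillar collagens split by the probe sets used. Of the 8 tested, Col1a1, Col1a2, Col3a1, Col5a2 and Col5a3 were higher and Col2a1, Col5a1 and Col27a1 lower in Sf1-Cre testes. In labelled Dhh-Cre testes 4 were higher and 3 lower, and Col5a3 did not pass. The lower calls of Col5a1 and Col27a1 depend on the probe set. With the mean of all probe sets Col5a1 was called higher in Sf1-Cre (0.73) and labelled Dhh-Cre (0.97). Col27a1 was then called higher in Sf1-Cre (1.01) and did not pass in labelled Dhh-Cre (-0.16). Under housekeeping centring the median of the 8 turned to -0.15 in Sf1-Cre and -0.04 in labelled Dhh-Cre, with 3 higher and 3 lower in Sf1-Cre and 4 higher and 3 lower in labelled Dhh-Cre.

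Col1a1 and Col1a2 encode the chains of type I collagen, and Col3a1 that of type III. Col1a1 lay at 11.31, 11.20, 11.51 and 11.35 in Sf1-Cre arrays and 11.64 and 12.08 in labelled Dhh-Cre arrays, against 9.90 and 9.85 in control arrays. Col1a2 lay at 10.99, 10.88, 11.31 and 11.16 in Sf1-Cre arrays and 11.37 and 11.98 in labelled Dhh-Cre arrays, against 8.38 and 8.94 in control arrays. Col3a1 lay at 11.38, 11.21, 11.38 and 11.37 in Sf1-Cre arrays and 11.58 and 11.79 in labelled Dhh-Cre arrays, against 7.26 and 7.65 in control arrays. No mutant array overlapped a control for these genes. In Sf1-Cre, Col1a1 was 2.77-fold higher (1.47 ± 0.17 SE, adjusted p = 8.6e-05), Col1a2 5.38-fold higher (2.43 ± 0.24 SE, adjusted p = 4.08e-05) and Col3a1 14.7-fold higher (3.88 ± 0.16 SE, adjusted p = 6.87e-07). In labelled Dhh-Cre, Col1a1 was 3.98-fold higher (1.99 ± 0.19 SE, adjusted p = 4.02e-05), Col1a2 8.09-fold higher (3.02 ± 0.28 SE, adjusted p = 3.15e-05) and Col3a1 18.8-fold higher (4.23 ± 0.18 SE, adjusted p = 1.86e-06). Under housekeeping centring Col1a1 no longer passed in Sf1-Cre (0.10, adjusted p = 0.63).

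Type V collagen seeds type I fibrils. Col5a2 lay at 6.49, 6.38, 7.52 and 6.95 in Sf1-Cre arrays and 5.99 and 6.78 in labelled Dhh-Cre arrays, against 3.80 and 3.77 in control arrays, at least 7.14-fold higher in Sf1-Cre (3.05 ± 0.35 SE, adjusted p = 9.36e-05) and at least 5.23-fold in labelled Dhh-Cre (2.61 ± 0.40 SE, adjusted p = 0.000497). Col5a3 stayed about the floor at 3.85, 3.55, 4.24 and 4.45 in Sf1-Cre arrays and 3.61 and 3.67 in labelled Dhh-Cre arrays, against 3.03 and 3.08 in control arrays. The gene was at least 1.02-fold higher in Sf1-Cre (0.97 ± 0.25 SE, adjusted p = 0.00695) and did not pass in labelled Dhh-Cre (0.58 ± 0.28 SE, adjusted p = 0.0902); with values under the floor set to it, or with housekeeping centring, the Sf1-Cre call was lost. Col5a1 lay at 7.82, 7.64, 7.75 and 7.91 in Sf1-Cre arrays and 8.26 and 7.73 in labelled Dhh-Cre arrays, against 8.56 and 8.63 in control arrays. It was 1.75-fold lower in Sf1-Cre (-0.81 ± 0.18 SE, adjusted p = 0.0031) and 1.51-fold in labelled Dhh-Cre (-0.60 ± 0.20 SE, adjusted p = 0.0256), with no overlap. Another tested Col5a1 probe set ran the opposite way (2.56 in Sf1-Cre and 2.89 in labelled Dhh-Cre), so the direction of this gene depends on the probe set. The labelled Dhh-Cre call was also lost without labelled Dhh-Cre replicate 2 (adjusted p = 0.169), without control replicate 1 (0.0682) and without control replicate 2 (0.0979).

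Col2a1 and Col27a1 are best known from cartilage. Col2a1 lay at 4.86, 4.36, 3.94 and 3.75 in Sf1-Cre arrays and 3.40 and 3.48 in labelled Dhh-Cre arrays, against 7.05 and 6.93 in control arrays. Its level was at least 6.43-fold lower in Sf1-Cre (-2.76 ± 0.29 SE, adjusted p = 5.94e-05) and at least 7.94-fold in labelled Dhh-Cre (-3.55 ± 0.34 SE, adjusted p = 3.75e-05). Col27a1 lay at 6.58, 6.73, 7.51 and 7.21 in Sf1-Cre arrays and 6.65 and 5.63 in labelled Dhh-Cre arrays, against 8.21 and 8.76 in control arrays. The gene was 2.79-fold lower in Sf1-Cre (-1.48 ± 0.36 SE, adjusted p = 0.00581) and 5.09-fold in labelled Dhh-Cre (-2.35 ± 0.42 SE, adjusted p = 0.00109). The mutants were below the controls for both genes. For Col27a1 a second tested probe set rose (3.51 in Sf1-Cre and 2.02 in labelled Dhh-Cre), and its Sf1-Cre call was lost without control replicate 2 (adjusted p = 0.0622).

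Fibril-associated collagens sit on the surface of fibrils. Of the 6 tested, Col22a1 was higher and Col9a1, Col14a1, Col16a1 and Col20a1 lower in both mutant groups, and Col9a3 passed in neither. The median was -2.59 in Sf1-Cre and -2.96 in labelled Dhh-Cre. Col20a1 lay at 5.92, 5.44, 5.57 and 5.80 in Sf1-Cre arrays and 5.23 and 5.18 in labelled Dhh-Cre arrays, against 9.62 and 9.51 in control arrays. The gene was 14.8-fold lower in Sf1-Cre (-3.88 ± 0.17 SE, adjusted p = 8.04e-07) and 20.5-fold in labelled Dhh-Cre (-4.36 ± 0.19 SE, adjusted p = 1.93e-06). Col9a1, a chain of cartilage type IX collagen, lay at 3.91, 3.18, 2.76 and 2.54 in Sf1-Cre arrays and 2.24 and 2.55 in labelled Dhh-Cre arrays, against 6.84 and 6.67 in control arrays. It was at least 6.76-fold lower in Sf1-Cre (-3.66 ± 0.35 SE, adjusted p = 3.7e-05) and at least 6.76-fold in labelled Dhh-Cre (-4.36 ± 0.41 SE, adjusted p = 3.51e-05). Col16a1 lay at 8.59, 8.25, 8.11 and 8.52 in Sf1-Cre arrays and 7.87 and 7.37 in labelled Dhh-Cre arrays, against 11.43 and 11.36 in control arrays. Its level was 8.16-fold lower in Sf1-Cre (-3.03 ± 0.20 SE, adjusted p = 5.42e-06) and 13.7-fold in labelled Dhh-Cre (-3.77 ± 0.23 SE, adjusted p = 5.79e-06). All mutant arrays lay below the controls for these 3 genes. Col14a1 was at least 2.86-fold lower in Sf1-Cre and at least 2.86-fold in labelled Dhh-Cre (-2.16 ± 0.20 SE in Sf1-Cre and -2.15 ± 0.23 SE in labelled Dhh-Cre). Col22a1, known at junctions between tissues, was 5.22-fold higher in Sf1-Cre (2.38 ± 0.24 SE) and 5.38-fold in labelled Dhh-Cre, while another tested probe set of the gene ran at -5.11 and -5.91. Col9a3 differed by -0.57 ± 0.26 SE, adjusted p = 0.0733 in Sf1-Cre and -0.14 ± 0.30 SE, adjusted p = 0.687 in labelled Dhh-Cre. Its second tested probe set read -3.06 and -2.43, and with the mean of all its probe sets Col9a3 was called lower in Sf1-Cre (-1.20, adjusted p = 0.000861) and in labelled Dhh-Cre (-0.83, adjusted p = 0.0116). It was also called lower in both under housekeeping centring (-1.94 and -1.47).

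**Figure D3:**
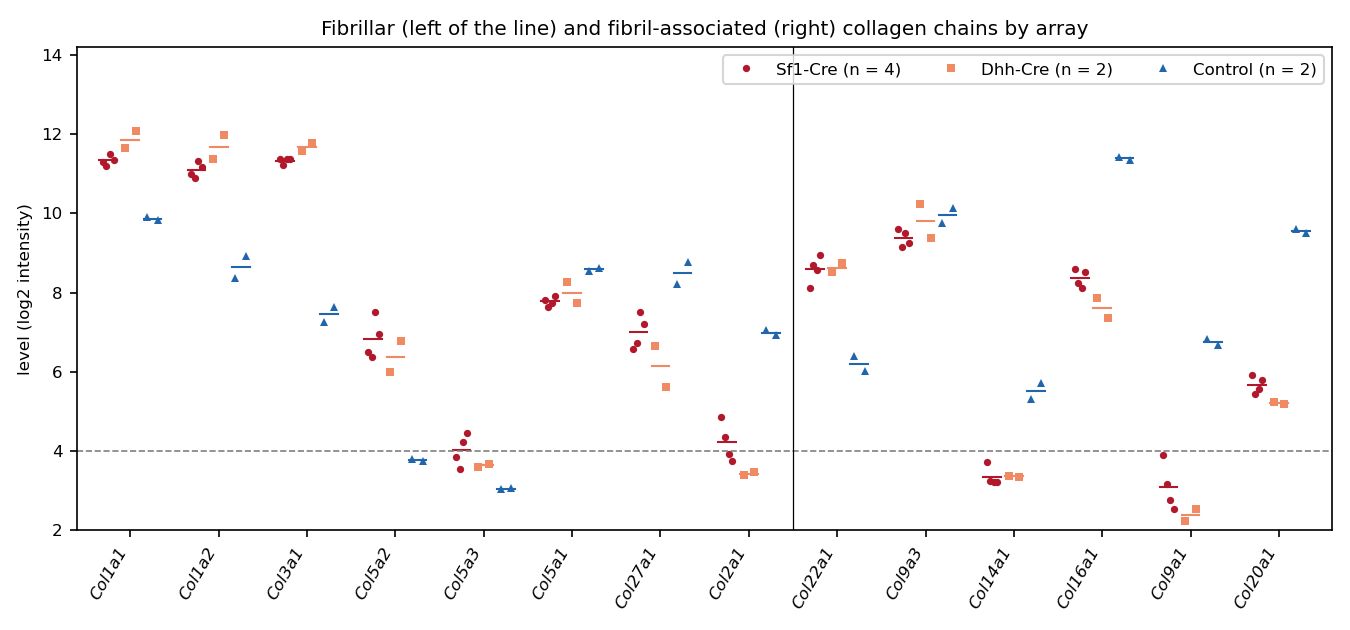
Log2 intensity of the 8 tested fibrillar collagens (left) and 6 fibril-associated collagens (right) on each array, circles Sf1-Cre, squares labelled Dhh-Cre and triangles control; short lines are group means and the dashed line is the floor at log2 4. Col1a1, Col1a2, Col3a1, Col5a2 and Col22a1 lie higher in the mutants, and Col2a1, Col9a1, Col14a1, Col16a1 and Col20a1 lower.

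Of the 10 other collagens tested, 4 were higher and 4 lower in Sf1-Cre, and 4 higher and 3 lower in labelled Dhh-Cre. Under housekeeping centring 3 were higher and 6 lower in Sf1-Cre, with Col7a1 and Col13a1 called lower and the call of Col6a3 lost (0.42, adjusted p = 0.0596), and 3 were higher and 4 lower in labelled Dhh-Cre. The type VI chains, which form beaded microfibrils next to basement membranes, moved apart. Col6a1 lay at 11.48, 11.46, 11.60 and 11.89 in Sf1-Cre arrays and 11.61 and 11.52 in labelled Dhh-Cre arrays, against 7.97 and 8.19 in control arrays. The gene was 11.5-fold higher in Sf1-Cre (3.52 ± 0.17 SE, adjusted p = 1.22e-06) and 11.2-fold in labelled Dhh-Cre (3.48 ± 0.19 SE, adjusted p = 4.19e-06). Col6a2 lay at 10.13, 10.08, 10.70 and 11.02 in Sf1-Cre arrays and 10.95 and 11.38 in labelled Dhh-Cre arrays, against 7.14 and 7.73 in control arrays. The gene was 8.26-fold higher in Sf1-Cre (3.05 ± 0.32 SE, adjusted p = 5.49e-05) and 13.3-fold in labelled Dhh-Cre (3.73 ± 0.37 SE, adjusted p = 4.41e-05). Col6a3 was 3.46-fold higher in Sf1-Cre (1.79 ± 0.18 SE) and 4.88-fold in labelled Dhh-Cre. Col6a4, another type VI chain gene of the mouse, was 6.42-fold lower in Sf1-Cre (-2.68 ± 0.22 SE) and 3.69-fold in labelled Dhh-Cre. Mutants and controls did not overlap for any of these 4 genes. Col25a1, encoding a collagen that spans the membrane of neurons, lay at 5.58, 6.14, 7.10 and 5.91 in Sf1-Cre arrays and 3.29 and 3.58 in labelled Dhh-Cre arrays, against 2.99 and 2.66 in control arrays. It was at least 4.54-fold higher in Sf1-Cre (3.36 ± 0.38 SE, adjusted p = 9.18e-05), while in labelled Dhh-Cre it stayed under the floor (0.62 ± 0.44 SE, adjusted p = 0.231).

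Col26a1, a collagen gene known from testis and ovary, was 4.23-fold lower in Sf1-Cre (-2.08 ± 0.54 SE, adjusted p = 0.00749) and did not pass in labelled Dhh-Cre (-0.52 ± 0.62 SE, adjusted p = 0.459). Its Sf1-Cre call was lost without control replicate 1 (adjusted p = 0.0694). Col23a1, a membrane-spanning collagen gene, was 2.56-fold lower in Sf1-Cre (-1.36 ± 0.19 SE) and 2.23-fold in labelled Dhh-Cre. Col8a1, a short-chain collagen gene of vessels and the cornea, was at least 2.07-fold lower in Sf1-Cre and at least 2.07-fold in labelled Dhh-Cre, but its other tested probe set rose by 1.82 in Sf1-Cre and 1.29 in labelled Dhh-Cre. Col13a1, membrane-spanning as well, differed by 0.60 ± 0.25 SE, adjusted p = 0.0541 in Sf1-Cre and 0.81 ± 0.29 SE, adjusted p = 0.0301 in labelled Dhh-Cre. The Col13a1 call was lost without labelled Dhh-Cre replicate 1 (adjusted p = 0.197), without control replicate 1 (0.128) and without control replicate 2 (0.0676). Col7a1, the anchoring fibril collagen of skin, differed by 0.34 ± 0.25 SE, adjusted p = 0.243, in Sf1-Cre and 0.68 ± 0.29 SE, adjusted p = 0.0591, in labelled Dhh-Cre.

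Genes of collagen-building enzymes were also mostly higher. Of 19 tested genes for collagen synthesis and crosslinking, 15 were higher and 1 lower in each mutant group, with medians of 1.66 in Sf1-Cre and 2.19 in labelled Dhh-Cre. Plod2, which hydroxylates lysines that later form crosslinks, was 15.5-fold higher in Sf1-Cre (3.95 ± 0.23 SE, adjusted p = 2.73e-06) and 7.53-fold in labelled Dhh-Cre. P3h2, a prolyl hydroxylase, was at least 7.09-fold higher in Sf1-Cre (4.07 ± 0.24 SE, adjusted p = 3.13e-06) and at least 2.79-fold in labelled Dhh-Cre. Crtap and P3h1, partners in prolyl hydroxylation, were 7.36-fold higher (2.88 ± 0.19 SE) and 5.52-fold higher (2.46 ± 0.17 SE) in Sf1-Cre. The lower gene, named after its values were seen, was Loxl4 (-0.54 ± 0.18 SE in Sf1-Cre and -0.59 ± 0.20 SE in labelled Dhh-Cre). Of 8 tested collagen receptors other than integrins, 6 were higher in Sf1-Cre, and 7 higher and 1 lower in labelled Dhh-Cre. Among them, Adgrg1 was 16.9-fold higher in Sf1-Cre (4.08 ± 0.30 SE) and Ddr2 10.1-fold higher (3.34 ± 0.22 SE), both receptors that bind fibrillar collagen. Cd44 was at least 1.58-fold higher (2.86 ± 0.22 SE) and the syndecan gene Sdc1 3.81-fold higher (1.93 ± 0.26 SE).

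Markers of matrix-making and other somatic cells differed too. All 8 tested fibroblast and interstitial genes were higher in both mutant groups (Lum was under the floor on every array), with summed intensities of 14150 to 15420 in Sf1-Cre and 13490 to 15720 in labelled Dhh-Cre arrays, against 3079 to 3247 in control arrays. Of 8 peritubular genes, 6 were higher and 1 lower (Actg2) in Sf1-Cre, and 7 were higher and 1 lower in labelled Dhh-Cre. The sums were 6227 to 7089 in Sf1-Cre and 9272 to 10810 in labelled Dhh-Cre arrays, against 5913 to 5962 in control arrays. Actg2 alone made up much of the control sums. It lay at log2 12.01 and 11.81 there, 6.68 to 7.35 in Sf1-Cre and 7.63 and 8.12 in labelled Dhh-Cre arrays. All 7 tested endothelial genes were higher (sums of 961 to 1563 in Sf1-Cre and 1402 to 1602 in labelled Dhh-Cre arrays, against 241 to 248 in control arrays), while the defining endothelial genes Pecam1 and Cdh5 were under the floor on every array. Of 12 tested Sertoli genes, 7 were higher and 2 lower in Sf1-Cre and 11 higher and 0 lower in labelled Dhh-Cre, with sums of 24940 to 27430 in Sf1-Cre and 38470 to 39800 in labelled Dhh-Cre arrays, against 19470 to 19810 in control arrays, and Amh under the floor. Of 11 tested genes of granulosa cells, the ovarian counterpart of Sertoli cells, 10 were higher in Sf1-Cre and 11 in labelled Dhh-Cre, with sums of 12400 to 16830 in Sf1-Cre and 9588 to 9892 in labelled Dhh-Cre arrays, against 1373 to 1415 in control arrays. Of 5 tested Leydig genes, 4 were higher in Sf1-Cre and 3 in labelled Dhh-Cre, with 0 lower and sums of 19270 to 28480 in Sf1-Cre and 18210 to 22920 in labelled Dhh-Cre arrays, against 5660 to 6438 in control arrays. The part of these markers in the collagen and laminin differences was not tested.

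Integrin subunits of the matrix receptor class held both the largest rise and the largest fall of the 62 genes. Of the 13 tested, 9 were higher and 3 lower in Sf1-Cre, and 10 were higher and 3 lower in labelled Dhh-Cre. Under housekeeping centring 6 were higher and 4 lower in Sf1-Cre, and 5 were higher and 3 lower in labelled Dhh-Cre. Their medians were 1.92 in Sf1-Cre and 1.95 in labelled Dhh-Cre.

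Itgb8, which pairs with the alpha subunit of Itgav in a receptor that activates latent TGF-beta, lay at 9.06, 8.91, 8.96 and 8.69 in Sf1-Cre arrays and 9.17 and 9.01 in labelled Dhh-Cre arrays, against 3.82 and 3.98 in control arrays. Both controls were under the floor and every mutant array was above log2 8. The gene was at least 29.9-fold higher in Sf1-Cre (5.01 ± 0.15 SE, adjusted p = 4.1e-07) and at least 34.0-fold in labelled Dhh-Cre (5.19 ± 0.18 SE, adjusted p = 1.28e-06). Itga2, the alpha subunit of a collagen receptor on platelets and epithelia, lay at 3.77, 3.23, 3.02 and 2.78 in Sf1-Cre arrays and 2.33 and 2.64 in labelled Dhh-Cre arrays, against 8.44 and 8.13 in control arrays. Here the controls were above log2 8 and every mutant array was under the floor. Its level was at least 19.5-fold lower in Sf1-Cre (-5.09 ± 0.27 SE, adjusted p = 2.15e-06) and at least 19.5-fold in labelled Dhh-Cre (-5.81 ± 0.32 SE, adjusted p = 3.94e-06). Spermatid genes were lower as given above, and of 9 spermatocyte genes 7 were lower in Sf1-Cre and 6 in labelled Dhh-Cre. The spermatocyte genes summed to 10070 to 20210 in Sf1-Cre and 10260 to 13180 in labelled Dhh-Cre arrays, against 25620 to 28600 in control arrays. Their part in the Itga2 difference was not tested.

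The RefSeq promoter windows (GRCm38.p6) of these 2 genes are shown because they stand at the ends of the range. They are chr12:119238227-119238526 on the minus strand for Itgb8 and chr13:114932051-114932350 on the minus strand for Itga2, written 5′ to 3′, with capitals on matches to 4 short motifs that were searched on both strands.
Itgb8: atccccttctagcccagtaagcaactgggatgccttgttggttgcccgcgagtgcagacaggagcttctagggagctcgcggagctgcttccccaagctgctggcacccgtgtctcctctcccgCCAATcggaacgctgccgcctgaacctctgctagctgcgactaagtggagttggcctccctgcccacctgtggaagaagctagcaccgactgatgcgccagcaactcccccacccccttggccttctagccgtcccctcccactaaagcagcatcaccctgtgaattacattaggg
Itga2: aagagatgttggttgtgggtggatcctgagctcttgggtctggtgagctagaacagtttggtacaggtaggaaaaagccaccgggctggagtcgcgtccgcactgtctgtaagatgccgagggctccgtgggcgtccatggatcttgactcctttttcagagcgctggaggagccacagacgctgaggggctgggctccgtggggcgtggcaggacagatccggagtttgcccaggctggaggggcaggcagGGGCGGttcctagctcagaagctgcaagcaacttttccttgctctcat

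The Itgb8 window held 1 CCAAT match and the Itga2 window 1 GGGCGG match, and the search covered the 59 of the 81 genes that have a window. GGGCGG, the core of GC boxes, stood in 33 of these genes (53.8% of their 65 windows), where 35.7% of all 32851 windows held it. CCAAT was in 18 genes (27.7% of windows, against 37.4% of all) and TATAAA in 5 (7.69%, against 13.6%). ACANTGT, the core of the DMRT1 motif, was in 0 of the 59 genes and in 7.54% of all windows. A match is a run of letters in these 300 bases and not a bound site.

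Itga1 encodes the alpha subunit of another collagen receptor and lies beside Itga2 on chromosome 13 (114958079 to 115101964, with Itga2 at 114833081 to 114932100, 25978 bases apart). Itga1, taken up for this position after its values were seen, lay at 7.73, 6.96, 6.68 and 6.55 in Sf1-Cre arrays and 6.85 and 7.00 in labelled Dhh-Cre arrays, against 10.39 and 10.33 in control arrays. The gene was 10.4-fold lower in Sf1-Cre (-3.38 ± 0.31 SE, adjusted p = 2.79e-05) and 10.8-fold in labelled Dhh-Cre (-3.44 ± 0.36 SE, adjusted p = 5.92e-05), with no overlap. Itga7, a laminin receptor subunit of muscle, was at least 1.18-fold lower in Sf1-Cre and at least 1.18-fold in labelled Dhh-Cre, and its calls were lost with values under the floor set to it. Itga9, whose partner is the beta subunit of Itgb1, lay at 8.02, 8.47, 8.99 and 9.06 in Sf1-Cre arrays and 7.67 and 7.50 in labelled Dhh-Cre arrays, against 4.85 and 4.58 in control arrays. The gene was 15.1-fold higher in Sf1-Cre (3.92 ± 0.30 SE, adjusted p = 1.02e-05) and 7.29-fold in labelled Dhh-Cre (2.87 ± 0.34 SE, adjusted p = 0.000117); another tested probe set of the gene differed by 0.56 and -0.04.

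Of the subunits of fibronectin and laminin receptors, Itga5, Itga3, Itga6 and Itgb1 were higher in both mutant groups. Itga5, the alpha subunit of the main fibronectin receptor, was at least 6.25-fold higher in Sf1-Cre (2.84 ± 0.48 SE, adjusted p = 0.00084) and at least 8.39-fold in labelled Dhh-Cre. Itga3 and Itga6 encode the alpha subunits of laminin receptors. Itga3 was at least 4.32-fold higher in Sf1-Cre (2.44 ± 0.38 SE, adjusted p = 0.000489). Another tested Itga3 probe set differed by 0.32 in Sf1-Cre and 0.31 in labelled Dhh-Cre. Itga6 was 3.83-fold higher in Sf1-Cre (1.94 ± 0.20 SE, adjusted p = 5.24e-05). Under housekeeping centring the labelled Dhh-Cre calls of Itga3 (0.94, adjusted p = 0.0822) and Itga6 (0.51, adjusted p = 0.0705) were lost. Itgb1, the beta subunit they share, was at least 4.79-fold higher in Sf1-Cre (2.40 ± 0.21 SE, adjusted p = 2.27e-05) and at least 3.57-fold in labelled Dhh-Cre. Of the beta subunits that pair with Itgav, Itgb3 was at least 2.47-fold higher (1.92 ± 0.24 SE) and Itgb5 2.94-fold higher (1.56 ± 0.27 SE) in Sf1-Cre. Neither Sf1-Cre call held under housekeeping centring (0.54, adjusted p = 0.0868, for Itgb3 and 0.18, adjusted p = 0.531, for Itgb5). Itgav itself was 2.31-fold higher in Sf1-Cre (1.21 ± 0.18 SE, adjusted p = 0.000448) and 2.31-fold in labelled Dhh-Cre, and under housekeeping centring it turned to -0.16 and -0.12. Itga8 differed by 0.36 ± 0.36 SE, adjusted p = 0.37 in Sf1-Cre and 1.09 ± 0.41 SE, adjusted p = 0.0392 in labelled Dhh-Cre. The labelled Dhh-Cre call for Itga8 was lost without Sf1-Cre replicate 2 (adjusted p = 0.0581), labelled Dhh-Cre replicate 2 (0.249), control replicate 1 (0.162) or control replicate 2 (0.0782).

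**Figure D4:**
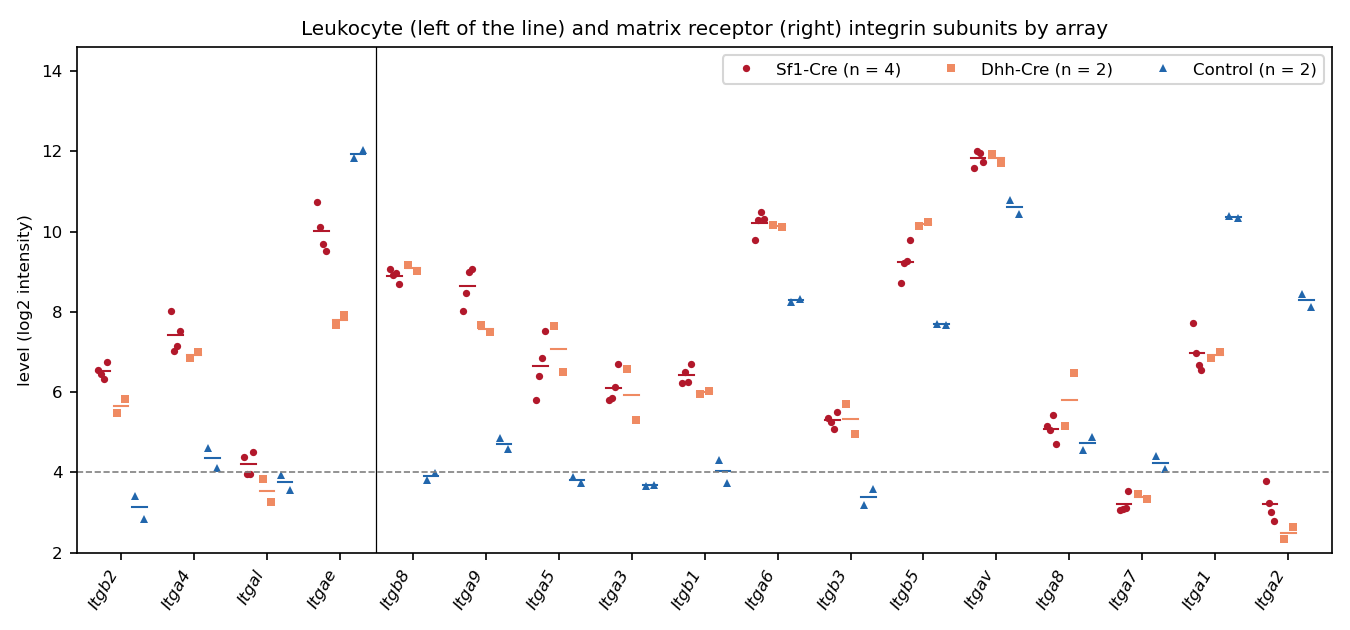
Log2 intensity of the 4 tested leukocyte integrin subunits (left) and 13 matrix receptor subunits (right) on each array, circles Sf1-Cre, squares labelled Dhh-Cre and triangles control; short lines are group means and the dashed line is the floor at log2 4. Itgb8 is under the floor in the controls and above it in the mutants, and Itga2 is the reverse.

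Proteins on the inner side of integrins were read from a list of 17 tested adaptors and kinases. In Sf1-Cre 9 were higher and 4 lower, in labelled Dhh-Cre 12 were higher and 4 lower. The Sf1-Cre counts lie near the shares over all tested genes, 46.6% higher and 33.2% lower. In labelled Dhh-Cre those shares were 49.1% and 30.5%. Fermt2, which activates integrins, was 8.96-fold higher in Sf1-Cre (3.16 ± 0.19 SE, adjusted p = 3.35e-06). Tln1, the talin that couples integrins to actin, was 3.75-fold higher (1.91 ± 0.14 SE, adjusted p = 8.26e-06), Parva 6.61-fold higher (2.72 ± 0.16 SE, adjusted p = 3.13e-06) and Lims1 7.62-fold higher (2.93 ± 0.20 SE, adjusted p = 6.04e-06). The 4 lower genes, named after their values were seen, were Tln2 (-3.24 ± 0.28 SE in Sf1-Cre), Parvg (-3.15 ± 0.27 SE), Lims2 (-1.76 ± 0.15 SE) and Apbb1ip (-1.20 ± 0.21 SE). Fermt3 and Parvb, relatives of Fermt2 and Parva, were higher (3.15 ± 0.34 SE and 1.78 ± 0.25 SE in Sf1-Cre). In labelled Dhh-Cre the 4 lower genes differed by -3.46 ± 0.32 SE for Tln2, -3.75 ± 0.31 SE for Parvg, -0.46 ± 0.18 SE for Lims2 and -1.43 ± 0.24 SE for Apbb1ip.

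Leukocyte integrins were few on these arrays. Itgam, Itgax and Itgb7 were under the floor on every array, so 4 of 7 were tested. Itgb2 and Itga4 were higher and Itgae lower in both mutant groups, and Itgal passed in neither. Without the 3 arrays with high Spink8 the same split of 2 higher and 1 lower held in each comparison with controls.

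Itgb2, the beta subunit of white blood cell integrins, lay at 6.55, 6.46, 6.31 and 6.74 in Sf1-Cre arrays and 5.48 and 5.84 in labelled Dhh-Cre arrays, against 3.40 and 2.85 in control arrays. Both controls were under the floor and no mutant array was. It was at least 5.72-fold higher in Sf1-Cre (3.39 ± 0.21 SE, adjusted p = 3.96e-06) and at least 3.15-fold in labelled Dhh-Cre (2.53 ± 0.24 SE, adjusted p = 3.95e-05). Itga4, whose integrin binds Vcam1 on vessels, lay at 8.02, 7.01, 7.15 and 7.53 in Sf1-Cre arrays and 6.86 and 6.99 in labelled Dhh-Cre arrays, against 4.60 and 4.12 in control arrays. Sf1-Cre replicate 1, the array with high blood cell genes, was highest. Its level was 8.39-fold higher in Sf1-Cre (3.07 ± 0.29 SE, adjusted p = 3.32e-05) and 5.93-fold in labelled Dhh-Cre (2.57 ± 0.34 SE, adjusted p = 0.000192). Without Sf1-Cre replicate 1 the Sf1-Cre differences were 2.87 for Itga4, 3.38 for Itgb2 and -2.15 for Itgae, and all passed. Itgal, the alpha subunit of the lymphocyte adhesion receptor, stayed about the floor at 4.37, 3.95, 3.96 and 4.50 in Sf1-Cre arrays and 3.82 and 3.27 in labelled Dhh-Cre arrays, against 3.93 and 3.57 in control arrays. It differed by 0.44 ± 0.24 SE, adjusted p = 0.121 in Sf1-Cre and -0.20 ± 0.28 SE, adjusted p = 0.515 in labelled Dhh-Cre, and under housekeeping centring it was called lower, at -0.93 and -1.53.

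Macrophage markers moved with Itgb2 and Itga4. Of 14 macrophage genes, 13 were higher and 1 lower (Aif1) in both mutant groups, and their summed intensity was 31710 to 37420 in Sf1-Cre and 25840 to 26060 in labelled Dhh-Cre arrays, against 11920 to 16070 in control arrays. Ptprc, which marks all white blood cells, lay at 8.49, 7.88, 8.59 and 8.42 in Sf1-Cre and 7.49 and 7.29 in labelled Dhh-Cre arrays, against 3.53 and 3.47 in control arrays. Spn, another white blood cell gene read beside the lists, was under the floor on every array (2.34 to 3.55). Of 12 lymphocyte genes on the array 4 were tested, with 1 higher (Cd79b) and 2 lower (Cd3d and Cd2) in Sf1-Cre, and 0 higher and 2 lower (Cd3d and Cd2) in labelled Dhh-Cre. Their sums were 123 to 639 in Sf1-Cre and 114 to 123 in labelled Dhh-Cre arrays, against 495 to 579 in control arrays. Cd3d alone, at log2 8.51 and 8.73, made up most of the control sums, while Cd3e passed in neither mutant group. The highest Sf1-Cre sum was that of replicate 1, where Cd79b lay at 8.40, against 3.93 to 5.63 on the other Sf1-Cre arrays. Cd4 and Cd8a were under the floor on every array. The part of macrophages and lymphocytes in the Itgb2 and Itga4 differences was not tested. Of 13 tested integrin ligands outside the matrix chains, 11 were higher in Sf1-Cre and 12 in labelled Dhh-Cre, with 0 lower. Icam1, a ligand of Itgb2 integrins on vessel and Sertoli cells, was 12.1-fold higher in Sf1-Cre (3.60 ± 0.18 SE, adjusted p = 1.69e-06) and 12.3-fold in labelled Dhh-Cre. Icam2 was at least 3.79-fold higher, Jam2 7.21-fold higher and Tgfbi 4.52-fold higher in Sf1-Cre.

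Itgae, which marks lymphocytes that live within epithelia, went the other way. It lay at 10.74, 10.11, 9.69 and 9.53 in Sf1-Cre arrays and 7.67 and 7.91 in labelled Dhh-Cre arrays, against 11.83 and 12.03 in control arrays. The 3 groups did not overlap, with the controls highest. The gene was 3.76-fold lower in Sf1-Cre (-1.91 ± 0.32 SE, adjusted p = 0.000803) and 17.6-fold in labelled Dhh-Cre (-4.14 ± 0.37 SE, adjusted p = 2.85e-05). A second Itgae probe set ran the same way (-2.95 and -5.72). Haspin, a germ cell kinase gene, lies wholly inside Itgae on chromosome 11 (GRCm38.p6, 73135484 to 73138294 within 73090505 to 73147449). Its own probe set lay at 10.09, 9.39, 8.74 and 8.37 in Sf1-Cre and 5.69 and 5.48 in labelled Dhh-Cre arrays, against 12.41 and 12.50 in control arrays, and the 4 Sf1-Cre arrays came in the same order as for Itgae. The spermatid genes Prm1, Prm2, Tnp1, Akap4 and Odf1 had that order too, so it is not particular to this locus. Haspin was looked up after the Itgae values were seen. Whether probes of one gene measure transcripts of the other was not tested, so the Itgae values are uncertain. Itgb7, which encodes the known partner of the Itgae subunit, was under the floor on every array.

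The 3 tested genes that carry the Itgb prefix but were not counted as subunits were lower or did not pass. Itgb3bp, encoding a centromere protein, lay at 11.21, 10.76, 10.46 and 10.16 in Sf1-Cre arrays and 10.02 and 10.41 in labelled Dhh-Cre arrays, against 11.52 and 11.76 in control arrays. The gene was 1.99-fold lower in Sf1-Cre (-0.99 ± 0.29 SE, adjusted p = 0.0124) and 2.69-fold in labelled Dhh-Cre (-1.43 ± 0.33 SE, adjusted p = 0.00429); its Sf1-Cre call was lost without control replicate 2 (adjusted p = 0.0892). Itgb1bp1, encoding a protein that binds the tail of the Itgb1 subunit, lay at 10.04, 9.97, 10.04 and 9.92 in Sf1-Cre arrays and 10.17 and 10.38 in labelled Dhh-Cre arrays, against 10.58 and 10.25 in control arrays. It differed by -0.42 ± 0.15 SE, adjusted p = 0.029 in Sf1-Cre and -0.14 ± 0.17 SE, adjusted p = 0.464 in labelled Dhh-Cre. The Itgb1bp1 call was lost without control replicate 1 (adjusted p = 0.219) and without Sf1-Cre replicate 2 (0.0594), 3 (0.0511) or 4 (0.0548). Itgbl1, a secreted protein gene, lay at 6.52, 5.56, 5.98 and 5.72 in Sf1-Cre arrays and 7.48 and 7.83 in labelled Dhh-Cre arrays, against 7.09 and 6.96 in control arrays. It was 2.11-fold lower in Sf1-Cre (-1.08 ± 0.27 SE, adjusted p = 0.00606) and did not pass in labelled Dhh-Cre (0.63 ± 0.31 SE, adjusted p = 0.091).

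The third comparison set the mutant groups against each other, Sf1-Cre over labelled Dhh-Cre. Of the 62 genes 6 were higher and 8 lower, and 48 did not pass, where 24.6% of all genes were called (12.9% higher and 11.8% lower). The median difference was -0.04 over the 62 genes and 0.02 over all. The groups did not overlap for 13 genes higher in Sf1-Cre (24.5% of all genes) and 17 lower (23.2%). The number of calls depended on single arrays and was 6 without labelled Dhh-Cre replicate 1, 7 without Sf1-Cre replicate 2, 8 without labelled Dhh-Cre replicate 2 and 9 without either control. Without the 3 arrays with high Spink8 it was 5. Of the 8 fibrillar collagens 0 passed by limma, 4 had an unadjusted p under 0.05 (Col1a1, Col1a2, Col2a1 and Col27a1), and the nearest to the threshold was Col1a1 (-0.52 ± 0.17 SE, adjusted p = 0.0558).

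Col25a1, Itgae and Itgbl1 kept their call and direction in all 20 alternatives. Col25a1 was at least 4.54-fold higher in Sf1-Cre (2.75 ± 0.38 SE, adjusted p = 0.00293), with every Sf1-Cre array above the floor and both labelled Dhh-Cre arrays under it. This gene passed the filter through the Sf1-Cre arrays alone. Itgae was 4.69-fold higher (2.23 ± 0.32 SE, adjusted p = 0.0033). Its values are uncertain, because Haspin lies inside the gene and the alternatives cannot separate the 2. Haspin lay at 8.37 to 10.09 in Sf1-Cre arrays and 5.69 and 5.48 in labelled Dhh-Cre arrays. Itgbl1 was 3.27-fold lower (-1.71 ± 0.27 SE, adjusted p = 0.00452). Col4a3 was 1.89-fold lower (-0.92 ± 0.14 SE, adjusted p = 0.00433) and kept its call in 19 of 20 alternatives.

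Basement membrane genes gave 6 of the 14 calls. Lama4 was 2.27-fold higher in Sf1-Cre (1.19 ± 0.27 SE, adjusted p = 0.0178). Col18a1 was 1.83-fold lower (-0.87 ± 0.20 SE, adjusted p = 0.0178), Lamc3 1.91-fold lower (-0.93 ± 0.22 SE, adjusted p = 0.0203), Lamb2 1.65-fold lower (-0.72 ± 0.19 SE, adjusted p = 0.0305) and Col4a4 1.55-fold lower (-0.63 ± 0.14 SE, adjusted p = 0.017). Col4a3 was the only 1 of the 6 left without labelled Dhh-Cre replicate 1, and 0 were called without the 3 arrays with high Spink8. Of integrin subunits, Itga9 was 2.08-fold higher (1.05 ± 0.30 SE, adjusted p = 0.0371), Itgb2 1.81-fold higher (0.86 ± 0.21 SE, adjusted p = 0.023) and Itgb5 1.92-fold lower (-0.94 ± 0.27 SE, adjusted p = 0.0386). Macrophage markers were also higher in Sf1-Cre for 5 of 14 genes and lower for 0, and their part in the Itgb2 difference was not tested. Col16a1 was 1.67-fold higher (0.74 ± 0.20 SE, adjusted p = 0.0326) and Col6a4 1.74-fold lower (-0.80 ± 0.22 SE, adjusted p = 0.0338). Calls that fell below the threshold without labelled Dhh-Cre replicate 1 were those of Lama4, Col18a1, Lamc3, Lamb2, Col4a4, Itga9, Itgb2, Itgb5 and Col6a4. Without labelled Dhh-Cre replicate 2 they were Lama4, Lamb2, Col4a4, Itga9, Itgb5, Col16a1 and Col6a4, and without Sf1-Cre replicate 2 Lamc3, Lamb2, Itga9, Itgb2, Itgb5, Col16a1 and Col6a4. Without either control replicate Lamb2, Itga9, Itgb5, Col16a1 and Col6a4 were lost. Leaving out Sf1-Cre replicate 1 ended the call of Col16a1, replicate 3 those of Itga9 and Itgb5, and replicate 4 those of Lamb2, Itga9, Col16a1 and Col6a4.

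**Figure D5:**
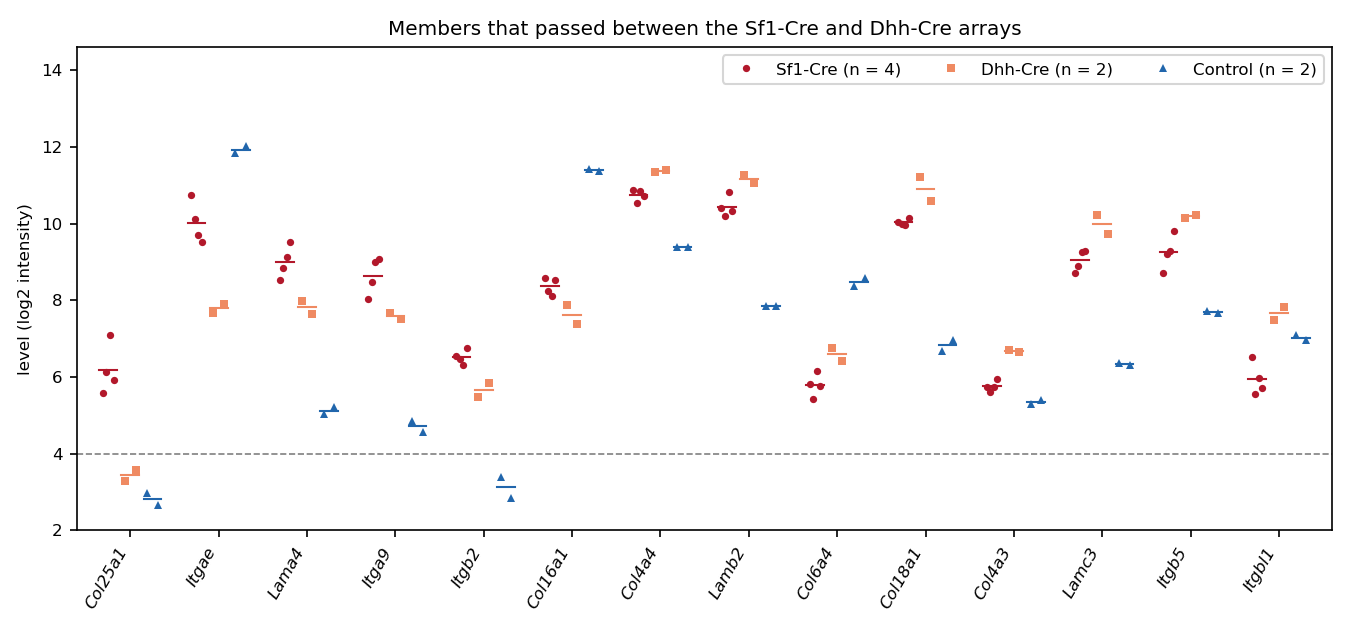
Log2 intensity on each array of the 14 genes that passed between the mutant groups, ordered from the largest positive to the largest negative difference; circles Sf1-Cre, squares labelled Dhh-Cre, triangles control, short lines are group means and the dashed line is the floor at log2 4. Col25a1 is above the floor in Sf1-Cre alone, and Itgae lies lowest in labelled Dhh-Cre.

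Within the Sf1-Cre group the arrays were not alike. Of the 19 genes lower than control, replicate 1 was the highest of the 4 arrays for 12 (63.2%, where the share over all lower genes was 71.5%). Of the 38 higher genes, replicate 4 was the highest for 21 (55.3%, and 48.0% over all higher genes). Prm1, a spermatid gene, lay at 9.39 on replicate 1 and 5.98 on replicate 4.

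Of 10 neighbouring pairs among these genes, within 100000 bases of each other, 7 had both genes tested, and in all 7 the pair had the same call in Sf1-Cre against control. Over all 26878 pairs of tested genes within that distance, 38.7% had the same call, while 38 of the 62 genes followed here were themselves higher, so the shares are not directly comparable. They were Col3a1 and Col5a2, Col4a4 and Col4a3 (gene models overlapping by 114 bases), Col6a2 and Col6a1, Col1a1 and Itga3, Col4a1 and Col4a2, Col4a6 and Col4a5 (1274 bases apart) on chromosome X, all higher, and Itga2 and Itga1, both lower. Under housekeeping centring the Sf1-Cre calls of Col4a2, Col4a4 and Col1a1 were lost and that of Col4a3 turned to lower, so the pairs with these genes no longer shared a call.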

How the data were processed

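Total RNA was extracted with TRIzol and biotin-labelled by in vitro transcription, per the labels' protocols, and 8 one-colour arrays of 45101 probe sets were hybridised, 1 per sample. The deposited values are linear intensities, 1 per probe set. The submitters' processing notes name GCRMA (version not given in the sources used here), which adjusts background and sets arrays to a common distribution, so a change shared by most genes is not seen. Array medians of the deposited intensity were 13.7 to 15.9, and 47.6% to 49.9% of probe sets reached log2 4 per array. The number of arrays limits the precision.

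Samples were grouped by their genotype labels, and the mutant arrays' descriptions also hold the letters wt beside the knockout. Intensities were put on the log2 scale here, with no further normalization of the deposited values. Of the probe sets, 34958 listed 1 gene symbol, 932 several and 9211 none in the platform annotation, and 34754 of those with 1 symbol were updated by Entrez identifier through RefSeq (GRCm38.p6). Probe sets with several symbols or none were left out. One probe set per gene was kept, that with the highest mean log2 over all 8 arrays, which can favour an unspecific probe set. Of 81 genes, 32 had 1 probe set and 49 several, and the text says where another tested probe set of a called gene ran in the opposite direction.

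The 13802 genes with at least 2 arrays at log2 4 were fitted with limma 3.58.1 as 3 group means over all 8 arrays, since groups of 2 cannot give a spread of their own, followed by eBayes. P-values are 2-sided, adjusted by Benjamini-Hochberg over the 13802 genes, with a threshold of 0.05. The comparisons were Sf1-Cre against control, Dhh-Cre against control and Sf1-Cre against Dhh-Cre. The fit ran in R 4.3.3 with the package data.table, version 1.17.8. Tables and figures used Python 3.11.15, pandas 2.3.3, numpy 2.4.6 and matplotlib 3.10.9.

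The genes followed, their classes and the marker and pathway lists were chosen with earlier results of these data known, and lists are described by counts and medians without a test. Values per array are given for tested basement membrane, fibrillar and leukocyte genes and for the 3 with the largest Sf1-Cre difference in each other class, and up to 4 genes of a pathway list with the lowest p are named. Promoter windows are RefSeq's (GRCm38.p6), found for 59 of the 81 genes. Alternatives were quantile normalization, centring on 13 housekeeping genes, no filter or one at log2 6, array weights, averaging a gene's probe sets, trended robust moderation, a threshold of 0.01, fitting the 2 compared groups alone, values under log2 4 set to 4, replicate number as a block and each array left out. A further one, dropping the 3 arrays on which Spink8 reached log2 10, was chosen after seeing the data.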

Additional observations from a re-analysis of the deposited data

Results flagged for a closer look

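Within the 4 Sf1-Cre arrays, 3 of the 62 tested genes had an array far from the other 3. Chance gives about 1 such gene in 20, which is about 3 of 62. Col3a1 was lowest on replicate 2 (log2 11.21), Col14a1 was highest on replicate 1 (3.73) and Itga7 was highest on replicate 4 (3.54), the last 2 both under the floor of log2 4.

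The direct test between the mutant groups, Sf1-Cre over labelled Dhh-Cre, passed for 14 genes. Higher in Sf1-Cre were Col25a1 (2.75), Itgae (2.23), Lama4 (1.19), Itga9 (1.05), Itgb2 (0.86) and Col16a1 (0.74). Lower were Itgbl1 (-1.71), Itgb5 (-0.94), Lamc3 (-0.93), Col4a3 (-0.92), Col18a1 (-0.87), Col6a4 (-0.80), Lamb2 (-0.72) and Col4a4 (-0.63). The Itgae values are uncertain because of Haspin, as given above. Dmrt1 itself was higher on the labelled Dhh-Cre arrays than on the control arrays, so which deletion these differences set apart rests on the label.

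Of the 19 untested genes, 2 reached the floor on 1 mutant array and on no control array. Col6a5 lay at log2 5.07 on labelled Dhh-Cre replicate 2, and Col11a1 lay at 4.07 on Sf1-Cre replicate 3.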

How the results depend on the processing

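Of the genes called, 39 of 57 in Sf1-Cre against control, 41 of 54 in labelled Dhh-Cre against control and 3 of 14 between the mutant groups kept call and direction in every alternative run. Housekeeping centring turned the fibrillar median to -0.153 in Sf1-Cre and -0.0421 in labelled Dhh-Cre, and the leukocyte median to -0.167 in labelled Dhh-Cre. In Sf1-Cre it gave -0.96 for Col4a3, -0.018 for Col4a4, -0.40 for Col5a3, -1.04 for Col7a1, -0.775 for Col13a1, -1.01 for Itga8, -0.93 for Itgal, -0.16 for Itgav and -0.29 for Lama5. In labelled Dhh-Cre it gave -9.73e-06 for Col4a3, -0.52 for Col13a1, -0.24 for Itga8, -0.12 for Itgav and -0.029 for Lama5. With no filter the leukocyte median in labelled Dhh-Cre was -0.2045. With the mean of all probe sets it was -1.20 over 2 tested genes, Col5a1 turned to 0.73 in Sf1-Cre and 0.97 in labelled Dhh-Cre, Col22a1 to -0.45 and -0.63, and Col27a1 to 1.01 in Sf1-Cre. The cause of these turns was not tested, except that housekeeping centring shifts all genes down.

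Between the mutant groups 14 genes were called, 6 of them basement membrane, 0 fibrillar and 2 leukocyte. All calls numbered 9 with only the 2 groups compared, 4 at the threshold of 0.01 and 5 without the 3 arrays with high Spink8. Basement membrane calls numbered 1 at that threshold and 0 without those arrays. Fibrillar calls numbered 1 with quantile normalization, no filter, trended robust moderation, values under log2 4 set to 4 or the replicate block, and 2 with the mean of all probe sets. Leukocyte calls numbered 1 at 0.01, with the block or without those arrays. With each array left out, all calls ran from 48 to 59 in Sf1-Cre against control and from 46 to 55 in labelled Dhh-Cre against control. Between the mutant groups they ran from 6 to 14, basement membrane from 1 to 7, fibrillar from 0 to 1 and leukocyte from 1 to 2. Where a group was left with 1 array, that array was assumed to vary like the other groups.

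Whether replicate numbers pair the arrays was left undecided. Deviations of arrays with the same number correlated at -0.19 and 0.38 (labelled Dhh-Cre and Sf1-Cre), 0.02 and -0.14 (control and Sf1-Cre) and 0.03 (control and labelled Dhh-Cre). In a group of 2 arrays the deviations mirror each other, so these values cannot exclude a pairing. With the replicate number as a block the calls numbered 54 in Sf1-Cre against control, 55 in labelled Dhh-Cre against control and 14 between the mutant groups. These 14 are not the same genes: Col4a4, Col18a1, Itga9, Itgb2 and Lama4 left the list, and Col2a1, Col6a2, Col9a1, Col26a1 and Lamb3 entered it. Signals under log2 4 give only bounds, and groups of 2 arrays leave small differences unresolved.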
